A study of Mus musculus with 10 samples.

Results

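The comparison described here is that of splenic B cell cultures from wild-type (WT) mice stimulated with lipopolysaccharide (LPS) in the presence or absence of SAHA, and it rests on 4 of the 10 libraries of the series. Per the labels, the cells were CD43- splenocytes of mice called B6 or BLACK-6, placed in RPMI with fetal calf serum at 1000000 cells per ml and cultured for 2 days. The WT LPS group (n = 2) received 5 µg/ml LPS, and the WT LPS+SAHA group (n = 2) received the same LPS plus 200 ng/ml SAHA from the start of the culture. The titles number the cultures WT 1 and WT 2 in each group, and the number was read as marking the mouse, which the labels do not state. The labels name no vehicle, no age and no sex, and they do not say whether a number stands for 1 animal or a pool. Each p-value below is set against the variation among these few cultures, some of which may be technical. Another group of splenic cultures with 5 µg/ml LPS, from KOKI mice (n = 2, an allele the labels do not spell out), entered the fit only to help estimate the spread. The treatment label of these 2 libraries names SAHA, while their titles and the design text name LPS alone. Sample names of the SAHA libraries contain "D3", although the protocol gives 2 days. All 46959 genes of the deposited table were considered, and 15342 passed the filter on low counts and were tested.

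SAHA, or vorinostat, is a hydroxamate that chelates the zinc of class I and class II histone deacetylases (HDACs), the enzymes that take acetyl groups off histones and other proteins. LPS binds the TLR4 complex on resting B cells, which then enlarge, divide and in part become plasmablasts, antibody-secreting cells directed by the regulators Blimp-1 (Prdm1) and XBP1. In such cultures the genes of growth, division and secretion are switched on, while genes of the resting follicular B cell are turned down.

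Total counts were 26517669 and 29222145 in the WT LPS libraries and 19701345 and 19751551 in the SAHA libraries. The B cell identity given by the labels was met by the markers: Ms4a1 (CD20) stood at 888 and 892 CPM (counts per 1000000, on library sizes scaled by TMM) without SAHA and at 932 and 898 CPM with it. Of the macrophage markers, Cd14 was at no more than 0.758 CPM, while Lyz2 stood at 10.6 ± 0.531 without and 20.2 ± 2.59 CPM with SAHA (SD, n = 2 each, log2 0.94, not called). WT LPS+SAHA replicate 2 stood apart. It held counts for 31524 genes, against 20474 to 22237 in the other WT libraries, and for 538 of 1433 olfactory and vomeronasal receptor genes, which B cells are not known to use, against 61, 68 and 151. On unscaled totals, the small nuclear RNA 7SK took 69086 CPM of WT LPS+SAHA replicate 1 and 29637 to 39808 CPM of the other WT libraries. Transcripts that contain major satellite repeats took 20412 CPM of WT LPS replicate 1 and 68828 to 107209 CPM of the other WT libraries. The part of these features in the results below was not tested. Counts over all genes, and the medians of some lists, are also given without WT LPS+SAHA replicate 2.

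**Figure D1:**
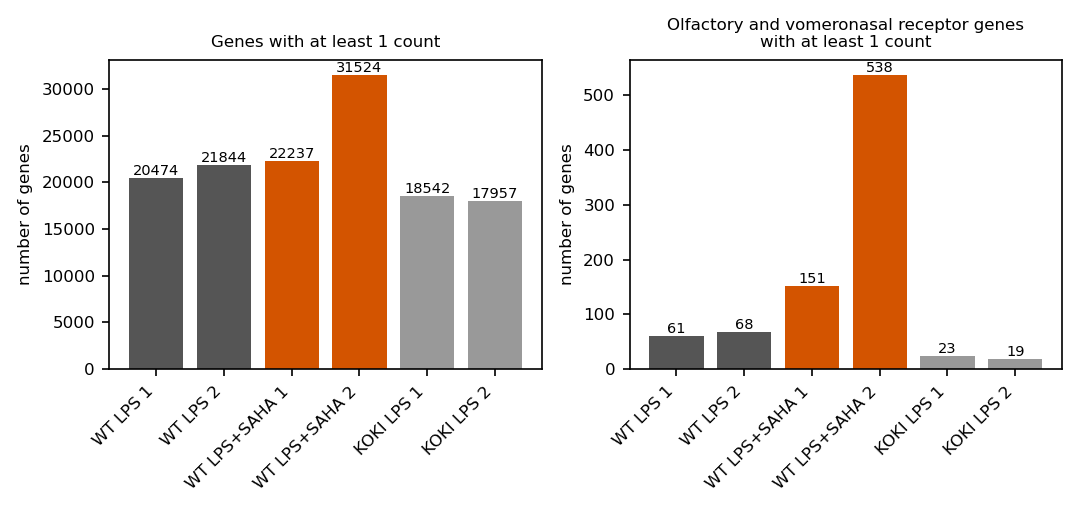
Bars give, for each of the 6 splenic libraries, the number of genes with at least 1 count (left) and the number of the 1433 olfactory and vomeronasal receptor genes with at least 1 count (right). WT LPS+SAHA replicate 2 reached 31524 and 538, the highest of both panels, and WT LPS+SAHA replicate 1 reached 22237 and 151.

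With SAHA, genes of cell division, of protein synthesis and folding and of amino acid supply were lower, and a smaller set that includes surface molecules of the mature B cell was higher. Of 15342 genes, 146 rose (0.952%) and 566 fell (3.69%) at a Benjamini-Hochberg adjusted p under 0.05 in edgeR's quasi-likelihood test, 4.64% together. Most changes were moderate: 57 rises and 96 falls had a log2 fold change of at least 1 in size, and 8 rises and 1 fall of at least 2. The smallest adjusted p was 0.0185. In all 146 rises and all 566 falls the groups did not overlap, against 27.5% (higher) and 28.4% (lower) of all genes tested. Where separation is given for a called gene below, it therefore comes with the call and is no further support. With the WT number as a block 527 rose (3.44%) and 1486 fell (9.69%), and all 712 genes above were among them. The balance of directions depended on the scaling: with upper quartile scaling in place of TMM, which moved the median log2 fold change of all genes from 0.02 to 0.16, 214 rose (1.39%) and 157 fell (1.02%), 2.42% together. Of the 146 rises 140 passed there, and of the 566 falls 157. Without WT LPS+SAHA replicate 2 edgeR called 0 genes, with 3136 at an unadjusted p under 0.05, and without WT LPS replicate 1 or WT LPS+SAHA replicate 1 it also called 0, with 2650 and 2973. The 4 WT libraries fitted alone gave 0 calls and 3765 genes at an unadjusted p under 0.05, so the calls rest on the spread estimated with the KOKI libraries or on the pairing. The 712 genes all kept their direction when any 1 library was left out, and an unadjusted p under 0.05 without WT LPS+SAHA replicate 2. DESeq2 on the 6 libraries called 305 rises and 874 falls. Of the 712 genes 474 were in none of the 50 gene lists chosen first, 121 of the rises and 353 of the falls. The lists below therefore describe a part of the calls.

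**Figure D2:**
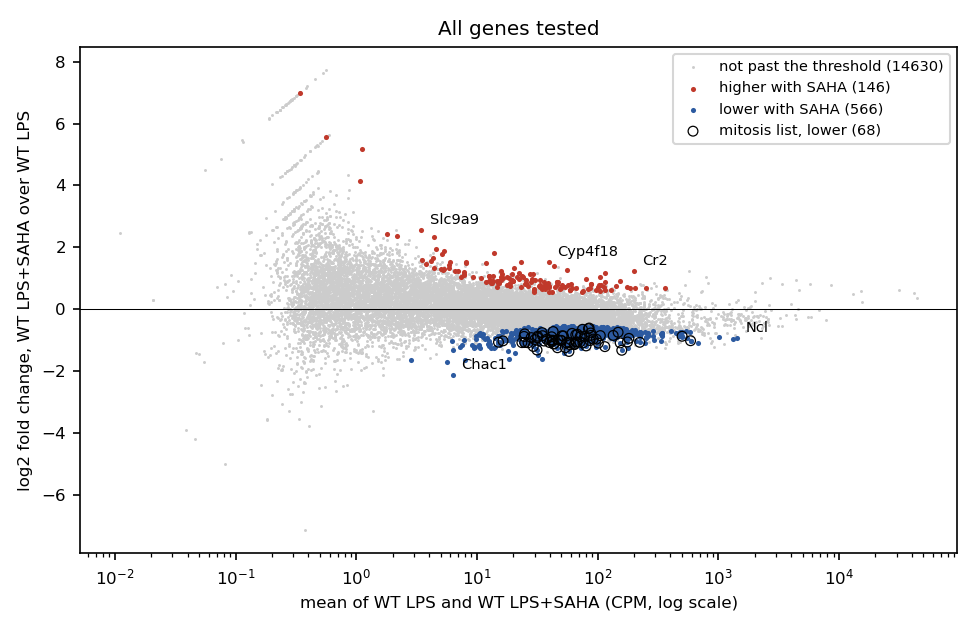
Each point is 1 of the genes tested, placed by its mean level in the 4 WT libraries (CPM, log scale) and its log2 fold change with SAHA. Red points are the 146 genes that rose, blue points the 566 that fell, and open circles the 68 members of the mitosis list that fell, which sit together between log2 −1.36 and −0.60.

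The rises were spread over levels, and the falls lay among abundant genes. In the lowest quintile of genes by level, at most 1.23 CPM, 4 rose and 0 fell, while in the highest quintile, from 54.6 CPM, 33 rose and 313 fell (10.2%). By quintile, median log2 fold changes ran from 0.50 at the lowest levels to −0.26 at the highest. Without WT LPS+SAHA replicate 2, the library with counts on the most genes, these medians were 0.32 and −0.23. Among 11353 protein-coding genes, the quintile with the longest span in the genome, from 65609 bases, held 62 rises and 46 falls, and the other quintiles held 14 to 20 rises and 90 to 147 falls each. The test has more power for abundant genes, and the share of the level in the pattern by span was not tested. Spans run from the first to the last base under a symbol, and the longest, 4.18e+07 bases, may join distant copies.

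**Figure D3:**
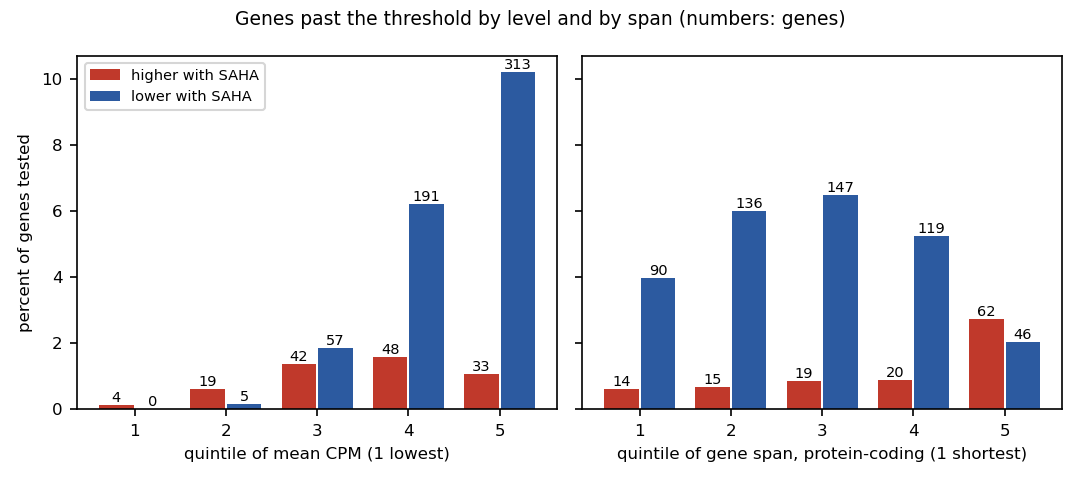
Bars give the percent of tested genes that rose (red) or fell (blue) with SAHA, in quintiles of mean level (left) and, for protein-coding genes, of gene span (right), with the number of genes above each bar. Falls reach 10.2% in the highest level quintile, and in the longest span quintile the 62 rises outnumber the 46 falls.

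Genes of mitosis, the machinery that condenses, aligns and separates chromosomes and then divides the cell, formed the largest block of falls. All 88 list members were tested. A fall was called for 68 (against 3.69% of all genes) and a rise for none, and the other 20 did not pass. The median log2 fold change was −0.94, against 0.02 over all genes tested. In 85 of the 88 both SAHA libraries lay below both WT LPS libraries, a separation that held for 28.4% of all genes tested. With upper quartile scaling 52 fell, and without WT LPS+SAHA replicate 2 the median was −1.02, with 0 members called and 83 lower at an unadjusted p under 0.05. Cdc20, the activator of the anaphase-promoting complex (chromosome 4, GRCm38), stood at 71.1 and 95.3 CPM in WT LPS replicates 1 and 2 and at 29.4 and 35.4 CPM with SAHA. The groups did not overlap, and the fall was log2 −1.36 (SE 0.17, edgeR adjusted p = 0.02). Its span overlaps Elovl1 on the opposite strand, which reached 33.1 CPM, and the counting's strand setting is not given in the sources used here. Ccnb1, cyclin B1, went from 233 and 219 CPM to 93.3 and 87.8 CPM (log2 −1.32). Sgol1, shugoshin, which guards centromeric cohesion, went from 49.5 and 40.2 CPM to 15.6 and 20.5 CPM (log2 −1.31). Both SAHA libraries were low for each of these genes. Cenpa, the centromeric histone, fell from 81.2 and 73.7 CPM to 46.3 and 44.2 CPM (log2 −0.78). Mki67, the proliferation antigen Ki-67, fell from 645 and 649 CPM to 326 and 383 CPM (log2 −0.87, edgeR adjusted p = 0.0389, and adjusted p = 0.069 with upper quartile scaling).

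The promoter of Cdc20 is shown because it had the largest fall of the list. Promoters of mitotic genes are known to carry CCAAT boxes, bound by NF-Y, and a cell cycle homology region (CHR), the binding site of MuvB complexes. The sequence is the 250 bases before the RefSeq start, chr4:118437344-118437593 on the minus strand of GRCm38.p6, with each CCAAT (either strand) and the CHR motif TTTGAA in capitals.
Cdc20: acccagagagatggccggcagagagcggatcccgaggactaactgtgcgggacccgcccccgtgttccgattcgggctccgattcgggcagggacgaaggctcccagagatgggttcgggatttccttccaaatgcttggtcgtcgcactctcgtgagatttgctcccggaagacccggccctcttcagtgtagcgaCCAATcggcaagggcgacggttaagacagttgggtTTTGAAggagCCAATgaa
The CCAAT boxes begin 53 and 8 bases before the start, and TTTGAA lies between them, 18 bases before it. Windows were found for 74 of the 88 mitosis genes tested (84.1%). CCAAT was present in 50 of them (67.6%), against 41.1% of 9981 tested genes with a window and 37.5% of all 27025 genes with one, and TTTGAA in 29 (39.2%), against 13.5% and 18.3%. These matches, on either strand, are a description of the windows.

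Genes of DNA replication and of the passage from G1 to S phase were lower to a lesser extent. Of 71 tested, 32 fell (45.1%, against 3.69% of all genes) and 0 rose. With the block 50 fell (70.4%, against 9.69% of all genes), and with upper quartile scaling 11, against 1.02% of all genes. The median log2 fold change was −0.65 (−0.71 without WT LPS+SAHA replicate 2). All 71 members had a negative log2 fold change. Cdc45, which with the MCM ring and GINS forms the replicative helicase, stood at 70.3 and 60.2 CPM without and 32.2 and 31.2 CPM with SAHA (log2 −1.04, SE 0.13, edgeR adjusted p = 0.0198). Ufd1l, on the opposite strand of its span, reached 52.0 CPM. Rrm2, the small subunit of ribonucleotide reductase, fell from 299 and 263 CPM to 153 and 121 CPM (log2 −1.04). The cyclin Ccne2 fell from 87.6 and 64.3 CPM to 39.8 and 35.9 CPM, and Dbf4, the activator of the origin-firing kinase CDC7, from 98.7 and 94.5 CPM to 49.6 and 47.8 CPM (log2 −0.99). In each of these 4 genes the SAHA libraries lay below both WT LPS libraries. The replication-dependent histones (67 tested) had 0 calls, with a median of −0.80 that went to −0.45 without WT LPS+SAHA replicate 2. With the block 20 of them fell (29.9%, against 9.69% of all genes). Hist1h3b, for example, stood at 581 and 440 CPM without and 257 and 177 CPM with SAHA (log2 −1.24, edgeR adjusted p = 0.103, and adjusted p = 0.0343 with the block). Reads of these near-identical histone genes may be split among copies.

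Among 22 tested CDK inhibitors, D cyclins, their kinases and Rb family genes, 0 rose and 4 fell: the phosphatase gene Cdkn3 (log2 −1.22), Ccnd2, the main D cyclin of activated B cells (log2 −0.71), Ccng1 (log2 −0.66) and the kinase gene Cdk4 (log2 −0.65). The 4 falls are 18.2% of the list, against 3.69% of all genes. With the block 2 rose (9.09%) and 5 fell (22.7%), against 3.44% and 9.69% of all genes, and with upper quartile scaling Cdkn3 alone passed. Cdkn1a, which encodes p21 and is often raised by HDAC inhibitors in other cells, stood at 5.50 and 3.57 CPM without and 2.92 and 2.62 CPM with SAHA (log2 −0.71, edgeR adjusted p = 0.296). Cdkn1b (p27) stood at 116 and 103 against 171 and 118 CPM (log2 0.40, edgeR adjusted p = 0.249). Of 26 p53 target genes tested Sesn1 rose (log2 0.72) and Sesn2 and Ccng1 fell (3.85% and 7.69%, against 0.952% and 3.69% of all genes). None of 27 Bcl2 family and caspase genes passed, and with the block 1 rose and 3 fell, with Bax at log2 −0.46. These block shares, 3.70% and 11.1%, are near those of all genes, 3.44% and 9.69%.

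Growth genes, which build the ribosomes and proteins of an enlarging blast, were lower as well. Of 54 tested genes of the Myc and ribosome assembly list 20 fell (37.0%, against 3.69% of all genes) and 0 rose. The median log2 fold change was −0.58. With the block 39 fell (72.2%) and 1 rose (1.85%), against 9.69% and 3.44% of all genes. Ncl, nucleolin, one of the most abundant nucleolar proteins, stood at 2111 and 1635 CPM without and 983 and 990 CPM with SAHA, with no overlap (log2 −0.92, SE 0.21, edgeR adjusted p = 0.0467). Pno1, a factor of small subunit assembly, fell from 151 and 113 CPM to 61.5 and 69.5 CPM (log2 −1.01), Mrto4, of the large subunit, from a mean of 86.3 ± 7.92 CPM to 45.1 ± 0.182 CPM (SD, n = 2 each, log2 −0.94), and Srm, spermidine synthase, from 107 and 131 CPM to 67.6 and 59.0 CPM (log2 −0.91). With upper quartile scaling 4 members of the list fell and 1 rose, and Ncl no longer passed (edgeR adjusted p = 0.0783). Myc stood at 51.1 and 54.3 CPM without and 38.5 and 41.4 CPM with SAHA (log2 −0.40, edgeR adjusted p = 0.105). The E-box CACGTG, a binding site of Myc, lay in 2 of the 48 promoter windows found for the 54 genes (4.17%), against 9.76% of tested genes. Cytosolic ribosomal proteins did not pass in any of 84 cases, with a median of −0.31 (−0.13 without WT LPS+SAHA replicate 2). With the block 3 of them fell (3.57%, below the 9.69% of all genes).

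Of 7 families chosen after their values were seen, and so given as a description only, 4 gave counts in the same direction. Of 35 tested genes of one-carbon and nucleotide synthesis 18 fell (median log2 −0.67), with the uridine kinase Uck2 going from 133 and 156 CPM to 75.8 and 76.1 CPM. Of 51 importins, exportins, Ran cycle and nuclear pore genes 18 fell, among them Rcc1, the exchange factor that charges Ran, from 109 and 114 CPM to 53.9 and 54.4 CPM. Translation initiation factors had 11 falls of 54, with Eif2s2 going from 428 and 345 CPM to 195 and 194 CPM, and mitochondrial ribosomal proteins 12 of 76. No member of these 4 families rose, apart from 1 initiation factor with the block and with upper quartile scaling. With upper quartile scaling 8, 5, 1 and 0 fell in the order given, and with the block 24, 30, 27 and 41. Of all genes 3.69% fell, 1.02% with upper quartile scaling and 9.69% with the block, and 0.952% rose. The remaining families had calls both ways. Histone lysine methyltransferases and demethylases had 4 rises and 4 falls of 56 (7.14% each, median log2 0.12). Small GTPase regulators had 3 and 2 of 95 (median 0.29), and Zfp or Zbtb zinc finger proteins 4 and 1 of 350 (median 0.07).

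Protein folding and breakdown moved in the same direction. Of 42 tested cytosolic and mitochondrial chaperones 9 fell (21.4%, against 3.69% of all genes) and 0 rose, with a median log2 fold change of −0.55. With the block 25 fell (59.5%, against 9.69% of all genes), and with upper quartile scaling 1. Hspd1, the mitochondrial chaperonin HSP60, went from 985 and 862 CPM to 403 and 460 CPM (log2 −1.10, edgeR adjusted p = 0.0277). Hspe1, on the opposite strand of its span, reached 821 CPM. Hsp90aa1, the inducible cytosolic HSP90, went from 1949 and 1523 CPM to 905 and 865 CPM (log2 −0.97), and Cct6a, of the TRiC chaperonin, from 703 and 586 CPM to 344 and 350 CPM (log2 −0.89). Its partners Cct3 and Cct8 fell too (log2 −0.77 and −0.71). Of 37 proteasome subunits 12 fell (32.4%, against 3.69% of all genes) and all 37 had a negative log2 fold change (median −0.58). With the block 28 fell (75.7%, against 9.69% of all genes), and with upper quartile scaling Psmc5 alone. This ATPase of the 19S cap went from 97.2 and 95.8 CPM to 56.6 and 58.5 CPM (log2 −0.74). Lysosome and autophagy genes, the other route of breakdown, had 0 calls of 48 and a median of 0.16. With the block 2 rose and 1 fell (4.17% and 2.08%, against 3.44% and 9.69% of all genes).

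Genes of amino acid supply held the fall that was largest by log2 fold change among all called genes. ATF4 is the transcription factor that raises amino acid synthesis and transport when amino acids run short or unfolded protein builds up. Of 38 tested genes of its response 10 fell (26.3%, against 3.69% of all genes) and 0 rose. The median log2 fold change was −0.67 (−0.77 without WT LPS+SAHA replicate 2). With the block 16 fell (42.1%, against 9.69% of all genes), and with upper quartile scaling 6. Chac1, a glutathione-degrading enzyme (chromosome 2), stood at 8.74 and 11.8 CPM without and 1.79 and 2.88 CPM with SAHA, a fall of log2 −2.13 (SE 0.30, edgeR adjusted p = 0.0234). Slc7a3, a carrier of basic amino acids, fell from 28.3 and 26.6 CPM to 9.10 and 9.14 CPM (log2 −1.59). Asns, asparagine synthetase, fell from 75.7 and 78.4 CPM to 27.6 and 30.6 CPM (log2 −1.40). In each of these genes both SAHA libraries lay below both WT LPS libraries. Slc7a5, the large neutral amino acid carrier, fell from 56.1 and 89.6 CPM to 30.0 and 37.6 CPM (log2 −1.11), Psat1, of serine synthesis, from 241 and 221 CPM to 112 and 125 CPM (log2 −0.96) and Sesn2, a leucine sensor, from 11.7 and 14.9 CPM to 5.41 and 5.68 CPM (log2 −1.26). Atf4 itself stood at 216 and 202 CPM without and 135 and 144 CPM with SAHA (log2 −0.58, edgeR adjusted p = 0.0567, and adjusted p = 0.024 with the block). Ddit3, which encodes the stress factor CHOP, stood at 10.3 and 10.0 against 11.5 and 10.5 CPM (log2 0.11, edgeR adjusted p = 0.807). Aminoacyl-tRNA synthetases, which load amino acids onto tRNA, had 5 falls of 20 (Dars, Gars, Yars, Iars and Tars, log2 −0.76 to −0.69). The 5 falls are 25% of the list, against 3.69% of all genes. All 20 had a negative log2 fold change, and 0 passed with upper quartile scaling. With the block 16 fell (80%, against 9.69% of all genes).

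The promoter of Chac1 is shown for the same reason as that of Cdc20. It is the 250 bases before the RefSeq start, chr2:119350992-119351241 on the plus strand of GRCm38.p6, with the match to the amino acid response element TGATGNAA, read on the opposite strand, in capitals.
Chac1: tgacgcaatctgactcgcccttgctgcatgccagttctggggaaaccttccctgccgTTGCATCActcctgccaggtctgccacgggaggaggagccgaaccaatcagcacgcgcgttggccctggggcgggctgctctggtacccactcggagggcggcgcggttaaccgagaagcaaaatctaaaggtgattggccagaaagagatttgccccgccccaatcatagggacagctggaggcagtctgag
The match begins 193 bases before the start. Such matches on either strand lay in 8 of the 32 windows found for the 38 genes (25%), against 2.55% of tested genes and 3.91% of all genes with a window. Among the called members 3 of 8 windows held one.

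The secretory path and the plasma cell programme were lower in part. Of 72 tested genes of folding, quality control and export of secreted proteins 14 fell (19.4%, against 3.69% of all genes) and 0 rose. The median log2 fold change was −0.49. With the block 35 fell (48.6%, against 9.69% of all genes) and with upper quartile scaling 4, each beside 1 rise. Hsp90b1, the endoplasmic chaperone GRP94, went from 919 and 678 CPM to 380 and 404 CPM (log2 −1.03). Sec24d, a coat protein of the vesicles that leave the endoplasmic reticulum, went from 9.99 and 10.9 CPM to 5.47 and 4.97 CPM, and Manf, a secreted survival factor of the stressed reticulum, from 149 and 135 CPM to 73.8 and 86.4 CPM (log2 −0.83). Hspa5 (BiP) stood at 925 and 795 against 515 and 550 CPM (log2 −0.69, edgeR adjusted p = 0.0681, and adjusted p = 0.0217 with the block).

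Of 26 plasma cell genes 5 fell (19.2%) and 1 rose (3.85%), against 3.69% and 0.952% of all genes. With the block 8 fell (30.8%) and 2 rose (7.69%), against 9.69% and 3.44%. Prdm1 stood at 29.2 and 30.7 CPM without and at 11.2 CPM in both libraries with SAHA (log2 −1.42, SE 0.13, edgeR adjusted p = 0.0185). Xbp1 went from 97.2 and 106 CPM to 46.1 and 57.2 CPM (log2 −0.98). The other falls were Ppapdc1b, a lipid phosphatase (log2 −0.78), Spcs3, of signal peptidase (log2 −0.73), and Ell2, an elongation factor of immunoglobulin transcription (log2 −0.64), and these 3 did not pass with upper quartile scaling. Zbtb20, which supports long-lived plasma cells, rose from 67.1 and 66.2 CPM to 121 and 94.7 CPM (log2 0.69). Other plasmablast genes did not pass: Jchain, of the secreted antibody, was at 58.7 and 44.3 against 36.9 and 32.6 CPM (log2 −0.57, edgeR adjusted p = 0.121, and adjusted p = 0.0476 with the block), Sdc1 (CD138) at 5.27 and 4.76 against 3.74 and 2.88 CPM (log2 −0.60) and the transcription factor Irf4 at 307 and 335 against 248 and 247 CPM (log2 −0.38). Fam46c, a poly(A) polymerase that stabilises messages of secreted proteins, fell from 50.3 and 53.6 CPM to 15.1 and 19.4 CPM (log2 −1.59, edgeR adjusted p = 0.0185).

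**Figure D4:**
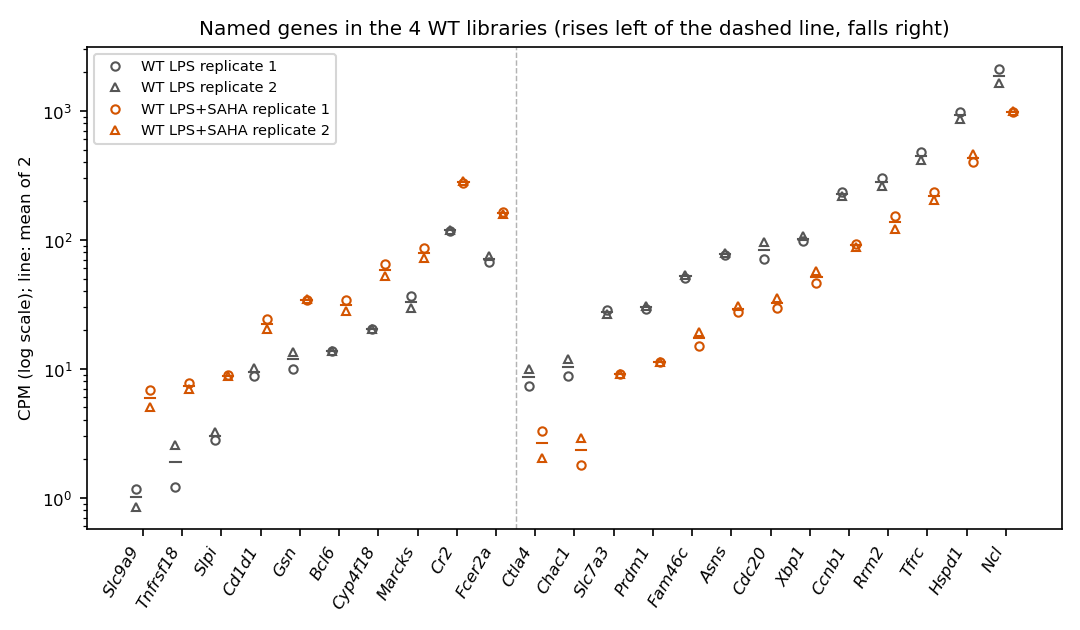
Each symbol is the level of 1 gene in 1 library (CPM, log scale), grey for WT LPS and orange for WT LPS+SAHA, circles for replicate 1 and triangles for replicate 2, with lines at the means of 2. The 10 rises left of the dashed line and the 13 falls right of it are called genes, and in every called gene the groups did not overlap. Means were 10.3 and 2.34 CPM for Chac1 and 1873 and 987 CPM for Ncl.

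Surface molecules of the mature B cell went the other way. Of 42 tested 7 rose and 0 fell (0.952% of all genes rose), with a median log2 fold change of 0.33 (0.31 without WT LPS+SAHA replicate 2), and with upper quartile scaling 7 rose as well. With the block 9 rose (21.4%) and 2 fell (4.76%), against 3.44% and 9.69% of all genes. Cr2, the complement receptor CD21, stood at 118 and 119 CPM without and 275 and 284 CPM with SAHA (log2 1.24, SE 0.15, edgeR adjusted p = 0.0186). Fcer2a, the IgE receptor CD23, rose from 67.1 and 74.3 CPM to 164 and 158 CPM (log2 1.19), and Cd1d1, which presents lipids, from 8.82 and 10.0 CPM to 24.2 and 20.4 CPM (log2 1.24). The groups were apart by more than their spread in each case. The other rises were Fcmr (the IgM Fc receptor, log2 0.91), Cd55 (a complement regulator, log2 0.74), Cd72 (an inhibitory coreceptor, log2 0.73) and Ly6a (Sca-1, log2 0.69). Of 36 B cell receptor signalling genes 4 rose (11.1%, against 0.952% of all genes) and 0 fell. The rises were the exchange factor Vav3 (log2 0.91), the adaptor Pag1 (log2 0.80), the inositol phosphate kinase Itpkb and the calcium channel Itpr2 (both log2 0.70).

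Among 52 B cell transcription factors Bcl6, a repressor of Prdm1, rose from 13.8 CPM in both WT LPS libraries to 34.0 and 28.0 CPM (log2 1.16, edgeR adjusted p = 0.023), and Arid3a fell from 129 and 128 CPM to 70.6 and 72.5 CPM (log2 −0.84), 1.92% of the list in each direction. With the block 6 rose (11.5%) and 3 fell (5.77%), against 3.44% and 9.69% of all genes. Pax5, which holds B cell identity, was at 274 and 321 against 413 and 407 CPM (log2 0.47, edgeR adjusted p = 0.114), Spib at 177 and 199 against 286 and 271 CPM (log2 0.57, adjusted p = 0.0632, and adjusted p = 0.0257 with the block) and Bach2 at 64.3 and 66.8 against 79.6 and 71.3 CPM (log2 0.20, adjusted p = 0.343). The 18 genes of MHC class II presentation had 0 calls. With the block March1 and H2-Eb2 rose, at log2 0.70 and 0.64 (11.1% of the list, against 3.44% of all genes). Of 31 homing and adhesion genes the integrin chain Itga4 rose (log2 0.70) and Itgb1, with which it pairs, fell (log2 −0.65), 3.23% of the list in each direction, near the share of all genes for falls. Toll-like receptor and NF-kB signalling genes had 0 calls of 42, and 1 rose and 2 fell with the block. These block shares, 2.38% and 4.76%, are below the 3.44% and 9.69% of all genes.

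Activation and effector molecules divided. Tnfrsf18, the costimulatory receptor GITR, rose from 1.21 and 2.55 CPM to 7.74 and 6.92 CPM (log2 1.95, SE 0.39, edgeR adjusted p = 0.0389). Ctla4, the inhibitory receptor best known from T cells, fell from 7.38 and 9.97 CPM to 3.30 and 2.04 CPM (log2 −1.71). T cell markers are given beside it: Cd3e was at no more than 0.379 CPM in any WT library, Lck at 11.1 and 11.4 against 14.0 CPM in both SAHA libraries, and Trac at 1.64 and 0.734 against 0.0541 and 0.532 CPM (log2 −1.95, not called). Trac was the lowest of 14 T cell markers tested, of which 9 had a positive and 5 a negative log2 fold change (median 0.40, 0 called). The part of these markers in the value of Ctla4 was not tested. Tfrc, the transferrin receptor of dividing cells, fell from 478 and 414 CPM to 235 and 203 CPM (log2 −1.02), and Icosl, the ligand of ICOS, rose from 31.6 and 36.3 CPM to 53.3 and 63.7 CPM (log2 0.78). Of 29 cytokine and chemokine genes tested Tnf rose (16.1 and 20.5 to 43.0 and 37.4 CPM, log2 1.14), and Il10 (45.3 and 41.2 to 17.2 and 18.8 CPM, log2 −1.27), Mif (log2 −0.91) and Ccl22 (log2 −0.78) fell. The 1 rise and 3 falls are 3.45% and 10.3% of the list, against 0.952% and 3.69% of all genes. With the block 4 rose (13.8%) and 3 fell (10.3%), against 3.44% and 9.69% of all genes. With upper quartile scaling Tnf and Il10 alone passed. Nfil3, a transcription factor, fell from 9.91 and 14.0 CPM to 3.74 and 3.95 CPM (log2 −1.64).

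The rises that were largest under the naming rule, which asks for at least 5 CPM in the higher group, were led by genes of varied function. Slc9a9 (chromosome 9, 94669909 to 95230445), an endosomal sodium-proton exchanger, stood at 1.17 and 0.839 CPM without and 6.82 and 5.01 CPM with SAHA (log2 2.55, SE 0.41, edgeR adjusted p = 0.0259). These values rest on 30, 24, 126 and 113 counts. Gbp8, an interferon-induced GTPase whose reads may be shared with close paralogs, was at 1.09 and 1.82 against 8.99 and 5.81 CPM (log2 2.34). Gsn, the actin-severing protein gelsolin, rose from 9.99 and 13.6 CPM to 33.9 and 34.8 CPM (log2 1.54), and Slpi, an inhibitor of neutrophil elastase, from 2.81 and 3.25 CPM to 8.99 and 8.70 CPM (log2 1.54). Cyp4f18, which degrades leukotriene B4, rose from 20.2 and 20.5 CPM to 65.0 and 52.0 CPM (log2 1.52). Both SAHA libraries were above both WT LPS libraries in all of them, as the naming rule asks. The other rises of this rule were Lpcat2, Clip2, Rab37, Fam65a, Whrn, Crisp3, Hip1, Ddx25 and Gsap, at log2 1.79 to 1.35. Besides falls given above, the rule named Cfp, properdin (log2 −1.47), the prostacyclin receptor Ptgir (log2 −1.34) and the tubulin Tubb6 (log2 −1.31). Of 54 cytoskeleton genes tested 2 rose, Gsn and Marcks, which links actin to the membrane and went from 36.3 and 29.7 CPM to 85.9 and 72.3 CPM (log2 1.26), and 2 fell. Each count is 3.70% of the list, against 0.952% of all genes for rises and 3.69% for falls.

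None of 18 HDAC and sirtuin genes passed (the sirtuins use NAD rather than zinc and are not targets of SAHA). With the block Hdac2 and Sirt1 fell, at log2 −0.44 and −0.59 (11.1% of the list, near the 9.69% of all genes). Hdac1 was at 105 and 105 against 81.0 and 87.4 CPM (log2 −0.32, edgeR adjusted p = 0.148), and Hdac3 at 47.1 and 51.4 against 39.6 and 39.8 CPM (log2 −0.31). Among 35 subunits of deacetylase complexes Mbd3, of the NuRD complex, fell (log2 −0.75), a share of 2.86% that is below the 3.69% of all genes. Of 33 acetyltransferases and bromodomain readers Atad2 (log2 −0.79), Hat1 (log2 −0.76) and Brd8 (log2 −0.56) fell (9.09%, against 3.69% of all genes). These did not pass with upper quartile scaling. Polycomb, DNA methylation and heterochromatin genes went both ways, with 8 falls (16.7%) and 3 rises (6.25%) of 48, against 3.69% and 0.952% of all genes. With upper quartile scaling there were 1 fall and 4 rises. Suv39h2, a writer of heterochromatic H3K9 methylation, fell from 18.8 and 15.9 CPM to 6.93 and 9.14 CPM (log2 −1.11). Hells, a remodeller needed for DNA methylation, went from 334 and 248 CPM to 162 and 157 CPM (log2 −0.87), and Ezh2, the catalytic subunit of PRC2, from a mean of 187 ± 19.9 CPM to 119 ± 5.21 CPM (SD, n = 2 each, log2 −0.65). Cbx7 and Cbx6, readers of the PRC2 mark, rose (log2 0.78 and 0.75), as did Jarid2, a PRC2 cofactor (log2 0.57). The span of Cbx7 overlaps Apobec3 on the opposite strand, and reads of the pair may not be told apart.

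Among 22 tested genes often reported to rise with deacetylase inhibitors 2 rose, Gsn and Txnip (197 and 187 to 326 and 299 CPM, log2 0.70), and Tubb6 fell. These shares, 9.09% and 4.55%, stand against 0.952% and 3.69% of all genes. H1f0, the linker histone H1.0, was at a mean of 19.0 ± 2.78 against 12.2 ± 1.43 CPM (SD, n = 2 each) (log2 −0.63, edgeR adjusted p = 0.0908, and adjusted p = 0.0381 with the block). The heavy chain constant genes had 0 calls of 7, with 5 positive and 2 negative log2 fold changes (median 0.22). With the block 2 rose (28.6%) and 1 fell (14.3%), against 3.44% and 9.69% of all genes. Ighm was at 2890 and 3236 against 2077 and 2267 CPM (log2 −0.50, edgeR adjusted p = 0.185). Of 44 tested genes of class switch recombination and mutation 3 fell (6.82%, against 3.69% of all genes): Fam72a (log2 −0.91), Exo1 (log2 −0.73) and Apex1 (log2 −0.67). None of these passed with upper quartile scaling. With the block 10 fell (22.7%) and 1 rose (2.27%), against 9.69% and 3.44% of all genes.

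**Figure D5:**
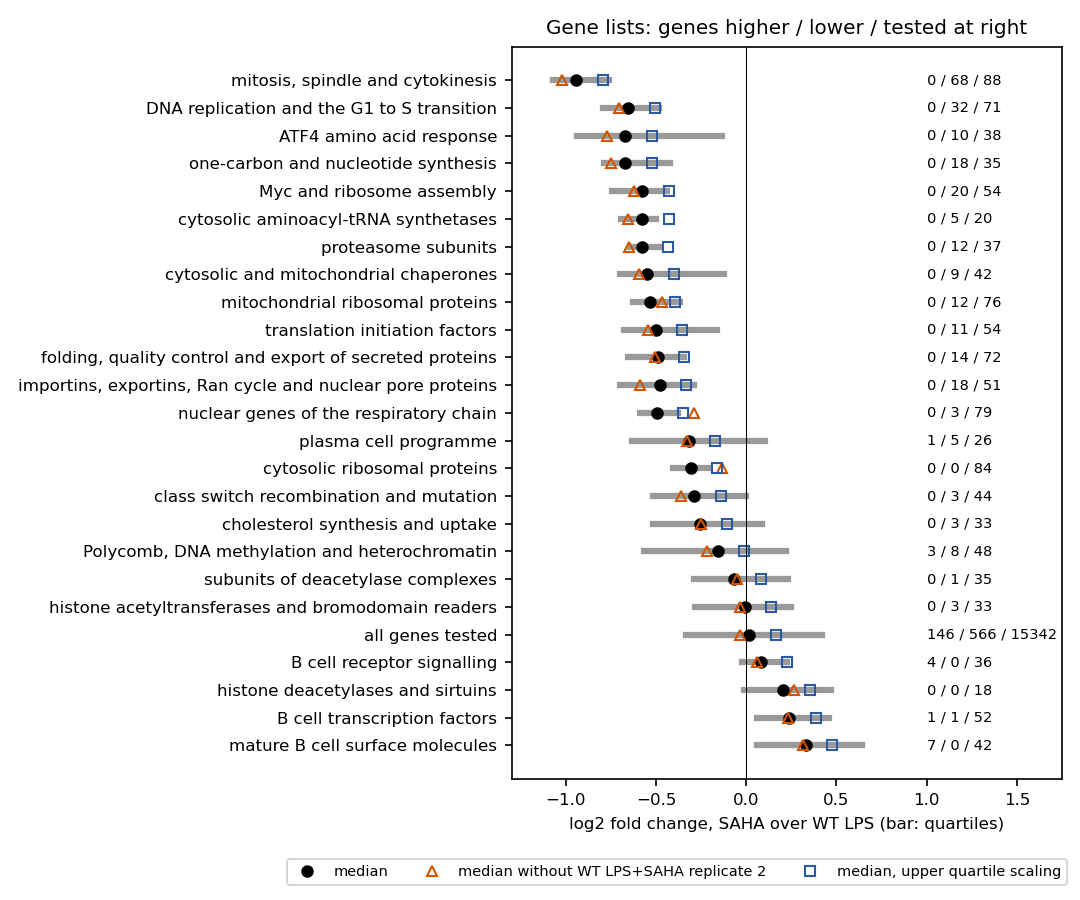
Filled circles give the median log2 fold change of each gene list with SAHA, grey bars its quartiles over genes, open triangles the median without WT LPS+SAHA replicate 2 and open squares that with upper quartile scaling, with the genes that rose, fell and were tested at right. The mitosis list lies lowest, at −0.94, and mature B cell surface molecules highest, at 0.33, of the lists drawn, and upper quartile scaling moves every list to the right.

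Metabolic lists had few calls, at shares of falls from near the 3.69% of all genes to 9.09%. Of 79 nuclear genes of the respiratory chain 3 fell (Atp5g1, Cyc1 and Ndufs1, 3.80%), 35 with the block (44.3%, against 9.69% of all genes) and 0 with upper quartile scaling, and the median log2 fold change of −0.49 was −0.29 without WT LPS+SAHA replicate 2. Cholesterol genes had 3 falls of 33 (9.09%), and 7 with the block (21.2%). The largest was that of Idi1, an isomerase of sterol synthesis, from 134 and 108 CPM to 56.3 and 62.6 CPM (log2 −1.02, edgeR adjusted p = 0.0238). Fatty acid genes had 2 of 29, or 6.90% (Acsl5, log2 −0.87, and Acsl4, log2 −0.63). Glycolytic genes had 2 of 37 (5.41%), the lactate carrier Slc16a1 (131 and 133 to 61.7 and 67.8 CPM, log2 −1.03) and Pgam1 (log2 −0.72), and redox genes 2 of 36, or 5.56% (Prdx1, log2 −0.86, and Prdx3, log2 −0.58), beside the rise of Txnip. With the block these 3 lists had 4, 7 and 11 falls (13.8%, 18.9% and 30.6%). Of 48 interferon-stimulated genes Eif2ak2, the RNA sensor PKR, fell (log2 −0.67), and 6 fell with the block. These shares, 2.08% and 12.5%, are below and near those of all genes, 3.69% and 9.69%.

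Markers of other cell types were at low levels, and some moved with SAHA. Summed over each list on unscaled totals, macrophage and monocyte markers were at 132 and 130 CPM without and 169 and 196 CPM with SAHA. Mpeg1, also used by B cells, gave the most, with 2695, 2900, 2304 and 2657 counts in the same order. Of 12 of these genes tested Adgre1 (F4/80) rose, from a mean of 9.38 ± 1.02 CPM to 17.7 ± 0.342 CPM (SD, n = 2 each, log2 0.92), and 11 had a positive log2 fold change. The defining genes C1qa, C1qb, C1qc and Fcgr1 had at most 2 counts outside WT LPS+SAHA replicate 2, where they had 1, 11, 14 and 2. T cell markers summed to 20.4 and 20.2 CPM without and 25.8 and 29.2 CPM with SAHA, NK cell markers to at most 4.86 CPM and neutrophil markers to less than that. Dendritic cell markers were at 82.9 and 66.6 against 57.2 and 66.0 CPM and erythroid markers at 12.7 and 6.81 against 12.6 and 8.66 CPM. Stromal and endothelial markers were at 65.8 and 73.3 against 88.1 and 126 CPM, most of it Pecam1, while the endothelial receptor Kdr had 0 and 2 against 8 and 25 counts. B cell markers summed to 2580 and 2770 CPM without and 3049 and 3801 CPM with SAHA. The part of these levels in the results was not tested. In bulk cultures a change in the share of a cell type and a change in RNA per cell cannot be told apart.

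Genes near silence in the WT LPS cultures appeared with SAHA more often than the reverse. The thresholds were set after the data were seen, so these numbers carry no test. By them, 70 genes had at most 3 counts over both WT LPS libraries and at least 10 in each SAHA library. The reverse held for 7 genes. The WT LPS libraries had larger totals, and the part of depth in these numbers was not tested. For comparison, 18 genes were as low in WT LPS and had at least 10 counts in each KOKI library. The cartilage collagen Col2a1 had 0 and 0 counts without and 25 and 17 counts with SAHA, Lgi1, a secreted neuronal protein, 0 and 0 against 20 and 17, and Auts2, a neuronal Polycomb cofactor, 0 and 0 against 13 and 35. The macrophage lectin Siglec1 had 0 and 1 against 15 and 18 counts. Their levels were low, at no more than 3.02 CPM in any SAHA library. Of the 70, 3 passed the test as rises (0.952% of all genes rose). The rule itself asks for more counts with SAHA, so these calls are no further support. Gp5, a platelet glycoprotein, was among the 3, with 0 and 0 against 16 and 11 counts. Of the 70, 49 were protein-coding, with a median span of 58316 bases against 23192 bases for protein-coding genes tested. In WT LPS+SAHA replicate 1 alone 250 genes met the rule. In replicate 2 alone, the library with counts on the most genes, 891 did, so counts from a single library differed widely. The 70 genes met it in both. Olfactory and vomeronasal receptor genes were also higher in both SAHA libraries, at 29.8 and 66.0 CPM on unscaled totals, against 12.4 and 9.14 CPM without SAHA. The part of such counts in the 70 genes was not tested. Neuronal and germline lists, often silenced in other tissues, had 0 calls of 18 and of 12 tested members, from lists of 57 and 40. With the block 1 neuronal gene rose (5.56%, against 3.44% of all genes).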

How the data were processed

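Per the labels' protocols, 500 ng of total RNA from miRNeasy extracts went into each stranded total RNA library. The deposited table holds read counts per gene, 1 column a library, and the authors' processing notes name STAR 2.4.0a, featureCounts of Subread 1.4.6-p1 and mm10 (GRCm38). Whether counting used the strand, and how multi-mapping reads were handled, is not given in the sources used here. The spike-in rows, 2 to 6 counts in each splenic library, were left out.

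From these counts edgeR 4.0.16 (R 4.3.3) was run with TMM scaling and its default filter on low counts (minimum count 10, minimum total 15), as a quasi-likelihood fit of 6 splenic libraries in 3 groups without a block, with Benjamini-Hochberg adjustment over all 15342 genes and a threshold of 0.05. Tested on simulated data of this comparison, with 15342 genes, it recovered 44 of 100 genes changed by 1 on the log2 scale and 96 of 100 changed by 2, with 12 false calls. The WT number in the titles was read as marking the mouse, and same-numbered libraries deviated together from their group means (correlation 0.365 over 15342 genes, a description). Alternatives were the block, other sets of libraries, DESeq2 1.42.0, no filter, upper quartile scaling, leaving out abundant gene classes and leaving out each library.

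Named genes were the 15 largest rises and falls among called genes without overlap between the groups and with at least 5 CPM in the higher group (immunoglobulin segments, pseudogenes and predicted genes aside), up to 4 called genes a list (where none was called, the 2 of smallest p, given as values), and 24 set genes. Atf4, Ddit3, Uck2, Rcc1, Eif2s2, Cct3, Cct8, Cd3e, Lck, Trac, Kdr, the other markers given by level and the near-silent genes fall outside that rule and were chosen after their values were seen, as were other called members given with a log2 value alone. The 50 gene lists were chosen with earlier results of these data known, and 7 more after seeing these results. Of 111 called named genes 43 have a gene on the opposite strand in their span, 17 of them one above 10% of their own level. A span runs from the first to the last base under a symbol, so a symbol with distant copies can overlap unrelated genes. Prdm1, Mif and Mbd3 have an opposite gene only through such a symbol, U3, and both counts include such cases. Besides genes marked in the text, the 17 include Ccne2, Suv39h2, Cyp4f18 and Ndufs1, where the opposite gene reached 69.8, 21.1, 34.2 and 765 CPM. Promoter windows are RefSeq's, GRCm38.p6. The windows matched 65.1% of tested genes, and motif shares for the replication (78.9% matched) and cholesterol (72.7%) lists are void, being under 80%. A few genes met by the naming rule are not reported here.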

Additional observations from a re-analysis of the deposited data

How the results depend on the processing

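Leaving out 1 library in turn gave 0 to 290 called genes, 0 to 51 rises and 0 to 239 falls, with 0 calls without WT LPS replicate 1, WT LPS+SAHA replicate 1 or WT LPS+SAHA replicate 2. These fits leave a group with 1 library, which is assumed to vary like the others. The 4 WT libraries alone gave 0 calls, 0 rises and 0 falls in edgeR, with 3765 genes at an unadjusted p under 0.05. With the WT number as a replicate block the 6 libraries gave 2013 calls (527 rises, 1486 falls) and the 4 WT libraries 3413 (1240 and 2173). DESeq2 gave 1179 (305 and 874), no filter on low counts 1970 (502 and 1468), all 10 libraries 211 (68 and 143) and upper quartile scaling 371, with 157 falls. Without immunoglobulin, mitochondrial and histone genes the counts stayed within 1.5 times. The causes were not tested. Of 163 named genes with a fit 111 were called, and 0 of these reversed under any of 14 settings. Of the uncalled genes, 4 changed sign: leaving out 1 library gave log2 −0.14 to 2.17 for Klrd1, −0.40 to 1.83 for S100a8, −0.21 to 3.42 for S100a9 and −0.084 to 0.70 for mt-Nd4, the negative values without WT LPS replicate 2 or WT LPS+SAHA replicate 1. List medians moved by more than the spread between the pairs in 262 of their comparisons and stayed within it in 519. The SAHA libraries, at 19701345 and 19751551 counts, limit the precision for genes of low level.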
